A study of Mus musculus with 48 samples.

Results

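Interferon-stimulated genes are the transcripts that rise when cells meet interferon, and 38 of them were followed across 3 tissues, the liver, the gastrocnemius muscle and the epididymal fat pad, here called adipose tissue, of fed, fasted, calorically restricted and FGF21-transgenic mice. They were taken by symbol from a list drawn up with earlier results of these data known, so the counts in restricted liver describe that list and are not an independent finding. Of the 38 symbols, 37 had a probe among the 16593 genes of the array, with 59 probes between them, and Ifi44 had none. A gene was tested in a tissue where its brightest probe was detected, at a detection p under 0.05, on at least 3 of the 16 arrays of that tissue. This left 32 members in liver, 32 in adipose tissue and 27 in muscle. Oas1a, Ifit1, Mx1, Xaf1 and Parp9 were not tested in any tissue, and Irf7, Dhx58, Oasl1, Rtp4 and Tap1 were not tested in muscle.

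RNA from male mice aged 3 months was hybridized to Illumina mouse arrays, 48 in all on 6 chips. In each tissue 3 arrays came from C57Bl/6J mice fed ad libitum (AL), 3 from C57Bl/6J mice fasted for 24 hr, 4 from C57Bl/6J mice under caloric restriction (CR) for 2 weeks, 3 from FGF21-Tg mice and 3 from their wild-type littermates (WT). The FGF21 transgene is driven by the ApoE promoter, so the hormone is made by hepatocytes and reaches the other tissues through the blood. The sample labels give the diet as 40% restriction, while the methods of the study describe food equal to 40% of the usual intake, so its severity is not settled. Restricted mice were caged singly, were fed once a day late in the afternoon and were killed shortly before the next meal, so restriction and the hours since the last meal cannot be told apart. A replicate holds cRNA from 1 to 3 mice, and p-values therefore measure the spread between arrays. Fasting and caloric restriction were set against the same ad libitum arrays, and their values are given side by side.

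Interferons are secreted by cells that sense foreign nucleic acid and by activated lymphocytes. Type I interferon binds a receptor linked to the kinases Jak1 and Tyk2, which phosphorylate Stat2, and a complex that holds Stat2 and Irf9 binds the interferon-stimulated response element (ISRE). Interferon gamma, made by T and natural killer cells, acts at the gamma-activated sequence (GAS) and is the main inducer of Irf1, of the immunity-related GTPases and of MHC class II. Low basal signalling keeps these genes measurable in healthy tissue, and in liver they are expressed both by hepatocytes and by Kupffer cells, the resident macrophages. The arrays measure whole tissue, in which fewer cells of a type and less RNA per cell cannot be told apart.

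The response elements can be read in the promoters of the members. RefSeq promoter windows on GRCm38.p6, from 250 bases before to 50 bases after the start of a gene, were found for 29 of the 38 members. An ISRE core, GAAANNGAAA on either strand, occurred in the windows of 16 of these 29 (55.2%), and in 1079 of 27025 windows of all genes (3.99%). A GAS, TTCNNNGAA, occurred in 9 of the 29 (31%) and in 2582 of the 27025 (9.55%), and in Bst2 and Ifitm3 a GAS overlapped an ISRE. The ISRE was found in Stat2, Ddx58, Ifih1, Eif2ak2, Oas1a, Oas1g, Ifit1, Ifit3, Rsad2, Bst2, Ifitm3, Isg15, Igtp, Irgm1, Gbp2 and Gbp3, and the GAS in Irf1, Eif2ak2, Oas1a, Ifit2, Bst2, Ifitm3, Ifi35, Igtp and Psmb8. The windows of 6 members whose values carry the comparisons are shown 5′ to 3′ on the strand of the gene, with the element in capitals. Isg15, Ifit3, Gbp3, Igtp and Rsad2 are shown for the ISRE and Irf1 for the GAS.
Isg15, minus strand, chr4:156200850-156200921, with 3 overlapping ISRE: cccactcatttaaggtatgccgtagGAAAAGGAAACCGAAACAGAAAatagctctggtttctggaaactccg
Ifit3, plus strand, chr19:34583348-34583441, with 2 ISRE: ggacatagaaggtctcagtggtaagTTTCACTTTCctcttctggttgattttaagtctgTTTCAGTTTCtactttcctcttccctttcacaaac
Gbp3, plus strand, chr3:142559974-142560039, with 2 overlapping ISRE: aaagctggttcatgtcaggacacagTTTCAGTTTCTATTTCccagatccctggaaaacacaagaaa
Igtp, plus strand, chr11:58199497-58199556, with 1 ISRE: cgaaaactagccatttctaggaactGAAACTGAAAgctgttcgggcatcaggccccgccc
Rsad2, minus strand, chr12:26456538-26456597, with 1 ISRE: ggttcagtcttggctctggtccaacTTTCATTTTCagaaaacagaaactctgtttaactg
Irf1, plus strand, chr11:53769899-53769957, with 1 GAS: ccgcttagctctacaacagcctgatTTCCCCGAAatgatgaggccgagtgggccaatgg
Promoters of both kinds occur among the members that fell in every tissue under caloric restriction, and a match of these letters is a description of the window and not a measured binding site.

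Before the genes were compared, the tissue on each label was checked against its defining transcripts, given as log2 signal. As labelled, the 4 muscle arrays on the second and the third chip in sample order carried the adipocyte transcript Adipoq at 15.90 to 16.03 and the muscle transcript Ckm at 4.74 to 5.39. When the labels of these chips were exchanged position by position, Adipoq stood at 15.86 to 16.03 on their adipose arrays, Ckm at 15.49 to 16.02 on their muscle arrays and Apoa1, a hepatocyte transcript, at 15.96 to 16.03 on their liver arrays. On the other 4 chips the same transcripts stood at 15.87 to 15.97, 15.53 to 15.99 and 15.86 to 16.02 under the labels as given. The exchange was therefore made for all 16 arrays of chips 2 and 3. For 12 of them it changes the tissue, and for 4, at the third and the fourth position, it only swaps ad libitum with restricted adipose tissue, which the tissue transcripts cannot settle. After the exchange 2 of the 4 restricted liver arrays came from these chips and none of the ad libitum or fasted ones, whereas all 10 adipose arrays of fed, fasted and restricted mice lay on them. All restricted adipose arrays lay on chip 2 and all ad libitum ones on chip 3, so diet and chip cannot be told apart in adipose tissue. In muscle the ad libitum arrays lay on chip 2 and the restricted ones on chip 4, with fasted arrays on both. Counts of members are given with these chips and, where arrays remain, without them.

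A gene was counted as fallen or risen at a Benjamini-Hochberg adjusted p under 0.10 over all genes of the tissue in limma. In liver, 29 of the 32 members fell under caloric restriction and none rose, with a median log2 fold change of -1.19, where 17.9% of all 9019 genes fell, 17.6% rose and the median was 0.01. Fasting lowered 19 of the 32 in liver, with a median of -0.69, against 9.7% of all genes. In adipose tissue 25 of 32 fell under caloric restriction (median -0.80, 25.1% of all genes) and 17 of 32 under fasting (median -0.57, 15.5%), and none rose. In muscle 18 of 27 fell under caloric restriction (median -0.68, 25.7%) and 1, Mx2 near background, was called higher (25.9%), and 17 of 27 fell under fasting (median -0.61, 21.4%). The fall seen in restricted liver was thus also measured in fasted liver and in the other tissues under both regimens, in fewer members and with smaller medians. Members whose every array lay below every ad libitum array numbered 29 in restricted liver, where 19.4% of all genes did so, 26 in fasted liver (17%), 23 and 21 in restricted and fasted adipose tissue (27.1% and 23.5%), and 18 and 14 in restricted and fasted muscle (22.8% and 21.7%).

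**Figure D1:**
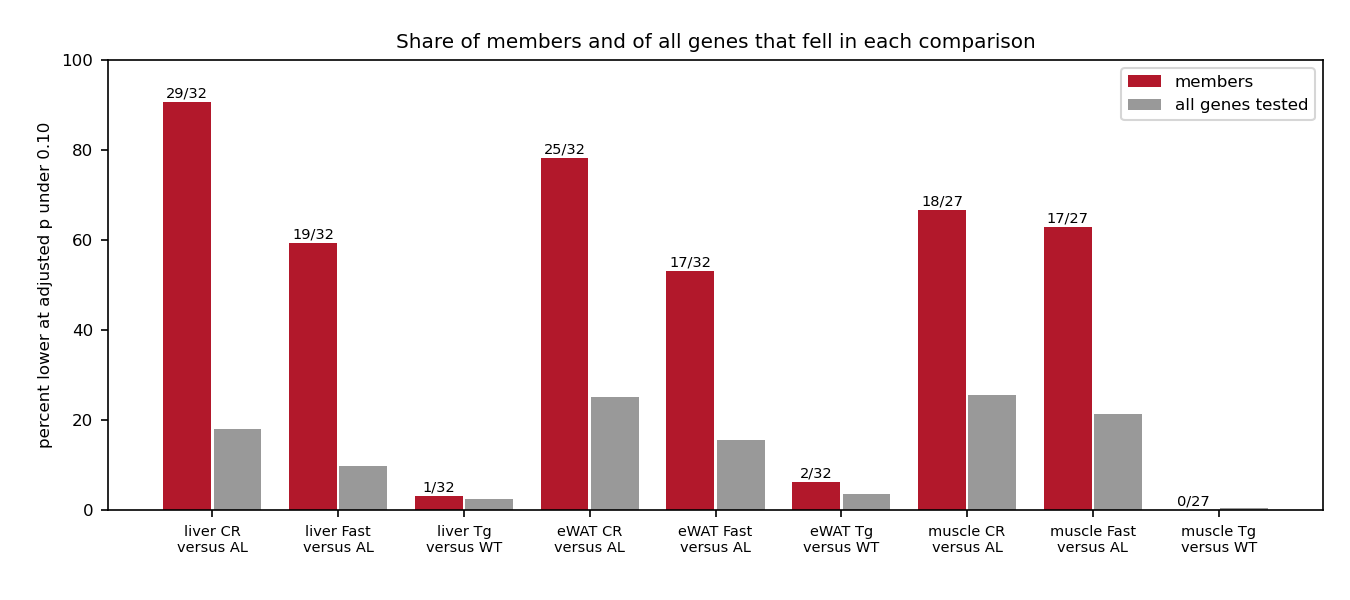
Bars give the percent of tested members and of all tested genes that were lower at an adjusted p under 0.10 in each comparison, from 0 upward. In restricted liver 29 of 32 members fell against 17.9% of all genes, and in the FGF21-Tg comparisons 1, 2 and 0 members were lower in liver, adipose tissue and muscle.

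**Figure D2:**
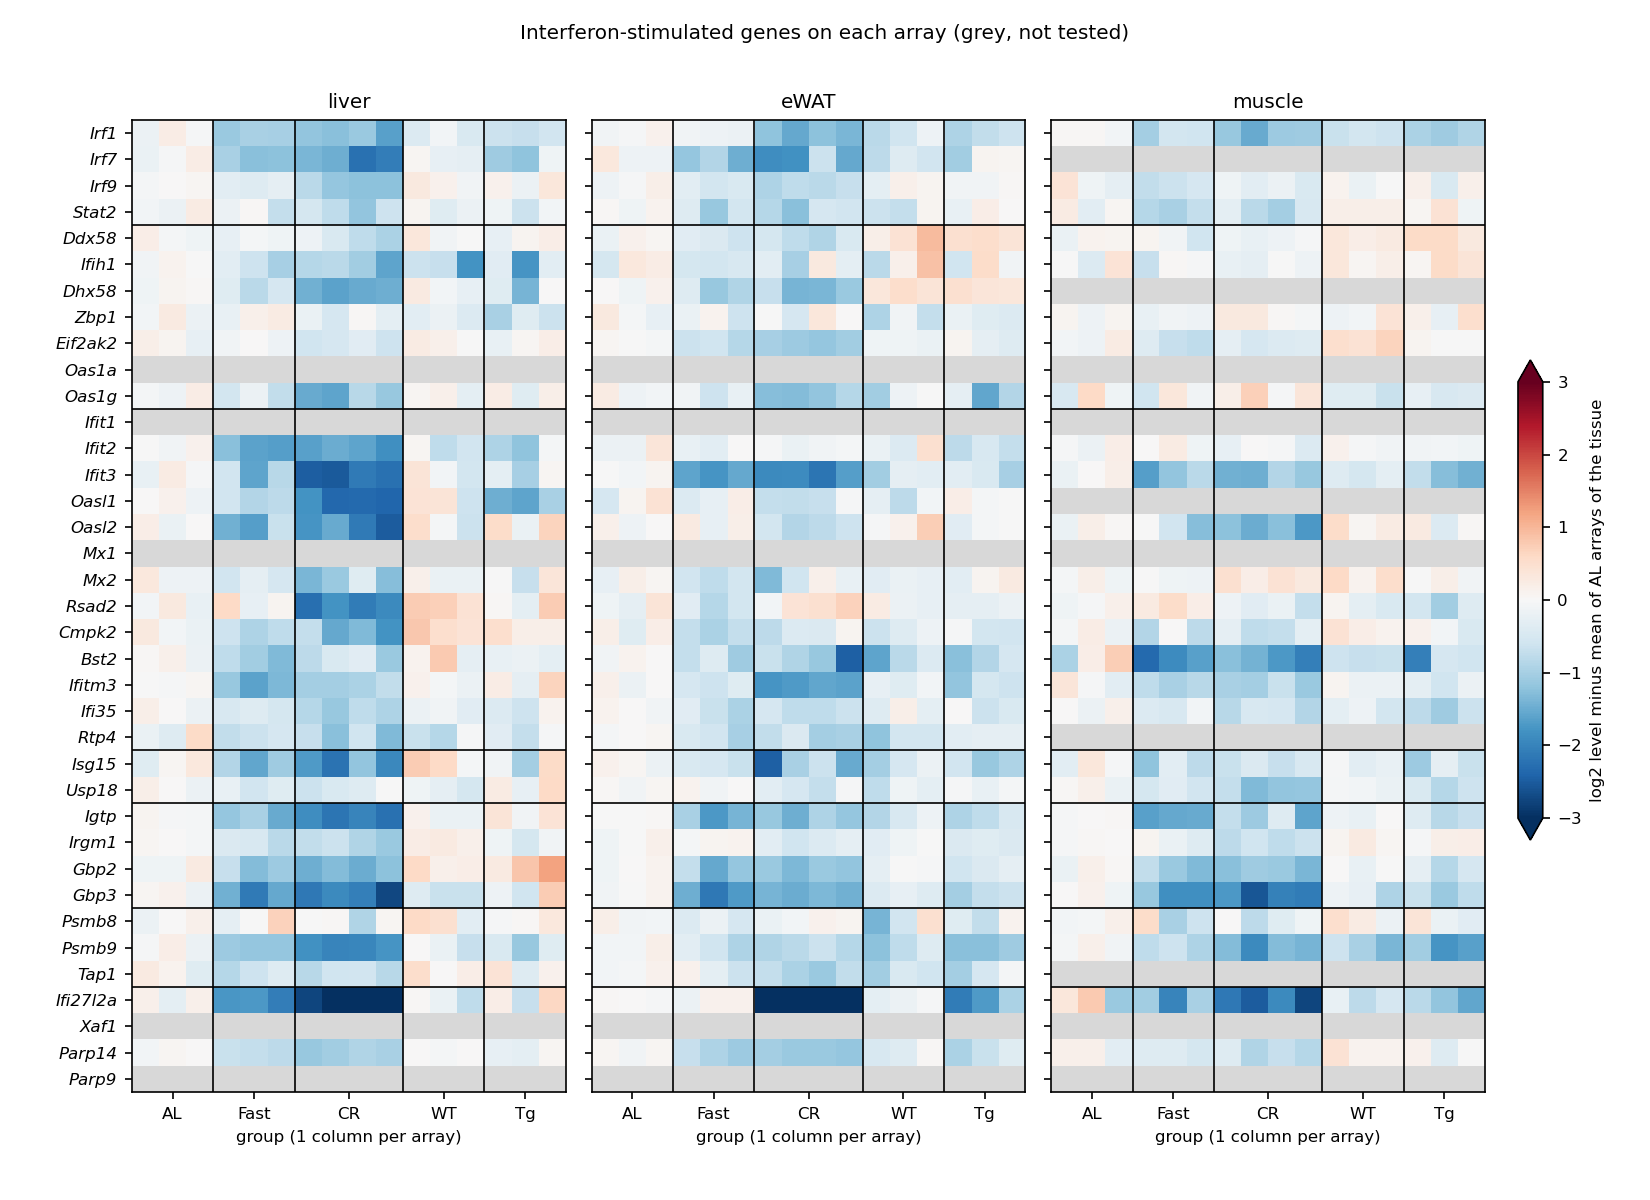
Colour gives the log2 level of each of the 37 members on each array minus the mean of the ad libitum arrays of the tissue, on a scale from -3 to 3, with members not tested in grey and the 16 arrays of each tissue in columns. The fasted and restricted columns of liver lie below the ad libitum columns for most members, and the wild-type columns do not.

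Without chips 2 and 3 liver kept 2 restricted arrays, both on the same chip as all ad libitum and fasted arrays. There 26 of 32 members fell under caloric restriction, with a median of -1.18 and against 13.8% of all genes, and 18 fell under fasting (9.6%). The 3 calls lost in restricted liver were Ddx58 at -0.30 (adjusted p = 0.294), Ifih1 at -0.83 (adjusted p = 0.18) and Bst2 at -0.62 (adjusted p = 0.114). Of the 32 log2 fold changes of restricted liver, 31 kept their sign without the exchanged chips, the exception being Psmb8, and they moved by a median of 0.11 and by at most 0.37, for Irf7 from -1.79 to -1.41. Wild-type littermates on the other chips also served as controls. Against them 27 members fell in restricted liver (20.1% of all genes) and 19 in fasted liver (13.6%), and with chips 2 and 3 left out as well, 25 (17.6%) and 19 (13.6%).

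The transcription factors of the response fell together in restricted liver, all 4 of them. Irf7, which drives interferon production once it is itself induced, stood at 7.95, 8.11 and 8.36 (log2 signal) on the ad libitum arrays, at 7.17, 6.88 and 6.92 on the fasted arrays and at 6.78, 6.67, 5.91 and 6.06 on the restricted arrays. Every fasted array lay below the lowest ad libitum array, and every restricted array below the lowest fasted one. Its log2 fold change came to -1.79 (standard error 0.25, adjusted p = 7.5e-05) under caloric restriction, 3.45-fold lower, and -1.15 (standard error 0.27, adjusted p = 0.00918) under fasting. Irf1, the factor that interferon gamma induces most directly, stood at 11.26, 11.67 and 11.40 on the ad libitum arrays, 10.34, 10.46 and 10.45 on the fasted arrays and 10.26, 10.19, 10.32 and 9.82 on the restricted arrays. Neither regimen overlapped with the fed mice, at -1.30 (standard error 0.15, adjusted p = 1.27e-05) under caloric restriction and -1.03 (standard error 0.16, adjusted p = 0.000418) under fasting.

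Irf9, the DNA-binding subunit of the complex with Stat2, stood at 9.51, 9.57 and 9.63 on the ad libitum arrays, 9.25, 9.19 and 9.31 on the fasted arrays and 8.77, 8.40, 8.35 and 8.35 on the restricted arrays. The groups formed separate steps, and the restricted step was the larger, at -1.11 (standard error 0.15, adjusted p = 6.31e-05) against -0.33 (standard error 0.16, adjusted p = 0.22) for fasting, which did not pass. Stat2 stood at 8.07, 7.97 and 8.39 on ad libitum, 7.96, 8.17 and 7.42 on fasted and 7.62, 7.39, 6.95 and 7.53 on restricted arrays. Its fasted arrays overlapped with the ad libitum arrays and its restricted arrays did not. The change was -0.77 (standard error 0.21, adjusted p = 0.0132) under caloric restriction and -0.29 (adjusted p = 0.466) under fasting, and the first did not pass with the chip as a block (-0.64, adjusted p = 0.105).

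**Figure D3:**
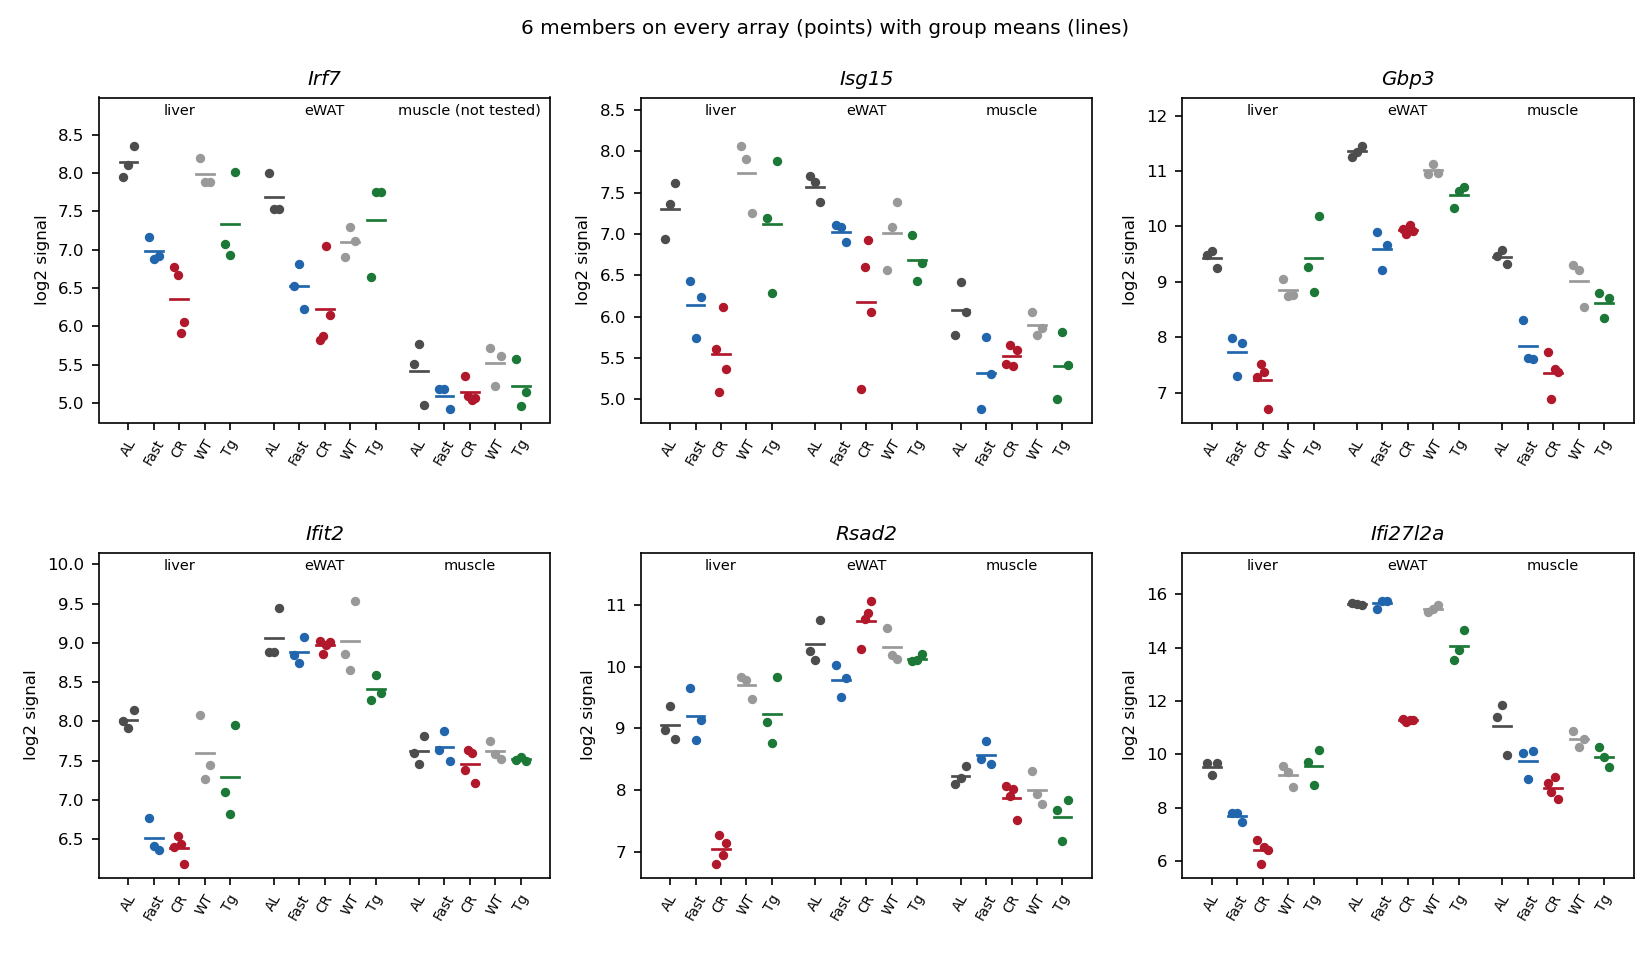
Points give the log2 signal of Irf7, Isg15, Gbp3, Ifit2, Rsad2 and Ifi27l2a on each array by tissue and group, and lines the group means. Within liver, Rsad2 is low on the 4 restricted arrays (6.80 to 7.27), and Ifi27l2a in adipose tissue separates the restricted arrays (11.20 to 11.32) from the ad libitum and fasted arrays (15.46 to 15.77).

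Of the sensors of foreign nucleic acid, 5 of 6 tested fell in restricted liver and 0 of 6 in fasted liver by limma, where Dhx58 and Oas1g had an unadjusted p under 0.05. Dhx58, the regulator of RIG-I also called LGP2, stood at 8.05, 8.27 and 8.23 on the ad libitum arrays, 7.82, 7.37 and 7.67 on the fasted arrays and 6.75, 6.57, 6.67 and 6.73 on the restricted arrays. The restricted arrays lay more than a log2 unit below the ad libitum ones, at -1.50 (standard error 0.24, adjusted p = 0.000269), and the fasted arrays lay between, at -0.56 (standard error 0.26, adjusted p = 0.183). The RNA sensors Ddx58 (RIG-I) and Ifih1 (MDA5), the RNA-activated kinase Eif2ak2 (PKR) and the oligoadenylate synthetase Oas1g fell by less, at -0.58 (adjusted p = 0.0285), -1.07 (adjusted p = 0.0268), -0.51 (adjusted p = 0.0138) and -1.27 (adjusted p = 0.000312). Zbp1, a sensor of Z-form nucleic acid, overlapped between groups, at -0.24 (95% confidence interval -0.61 to 0.14, adjusted p = 0.345) under caloric restriction. Oas1a was detected on 0 of 16 liver arrays. It is a near-identical copy of Oas1g, and whether the Oas1g probe tells the copies apart was not tested.

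All 11 antiviral effectors tested fell in restricted liver, with a median of -1.35. Ifit3, which binds foreign RNA with its relatives Ifit1 and Ifit2, stood at 9.62, 10.09 and 9.79 on the ad libitum arrays, 9.26, 8.24 and 9.0 on the fasted arrays and 7.35, 7.31, 7.72 and 7.59 on the restricted arrays. The groups did not overlap, and the change was -2.34 (standard error 0.28, adjusted p = 1.44e-05) under caloric restriction, 5.07-fold lower, and -1.0 (standard error 0.30, adjusted p = 0.0338) under fasting. Ifit2 stood at 8.0, 7.92 and 8.14 on ad libitum, 6.77, 6.41 and 6.36 on fasted and 6.40, 6.54, 6.44 and 6.18 on restricted arrays. Here the fasted arrays were as low as the restricted ones, at -1.51 (standard error 0.25, adjusted p = 0.000721) and -1.63 (standard error 0.24, adjusted p = 0.000101). Ifit1 was detected on 0 of 16 arrays in each tissue, with liver values of 4.81 to 5.54, and has no measured change. Ifit3 has a duplicate, Ifit3b, and the 2 copies may share signal.

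Rsad2, or viperin, an enzyme that makes a chain-terminating nucleotide, was the member that most set the regimens apart. It stood at 8.98, 9.36 and 8.83 on the ad libitum arrays, 9.66, 8.81 and 9.14 on the fasted arrays and 6.80, 7.27, 6.95 and 7.15 on the restricted arrays. The fasted arrays spanned the ad libitum range, whereas the highest restricted array lay far below both. Rsad2 fell 4.04-fold under caloric restriction, at -2.02 (standard error 0.24, adjusted p = 1.58e-05), and under fasting its value was 0.15 (95% confidence interval -0.40 to 0.69, adjusted p = 0.778). Its chromosomal neighbour Cmpk2, a mitochondrial nucleotide kinase, fell under both, at -1.35 (adjusted p = 0.000228) and -0.77 (adjusted p = 0.0354).

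The oligoadenylate synthetase-like genes Oasl1, which restrains translation of Irf7, and Oasl2 fell under both regimens. Oasl1 stood at 9.24, 9.37 and 9.08 on the ad libitum arrays, 8.65, 8.36 and 8.44 on the fasted arrays and 7.43, 6.88, 6.90 and 6.84 on the restricted arrays, with no overlap between any of the groups. Its change was -2.22 (standard error 0.24, adjusted p = 4.61e-06) under caloric restriction and -0.74 (standard error 0.25, adjusted p = 0.0629) under fasting. Oasl2 stood at 8.54, 8.13 and 8.35 on ad libitum, 6.91, 6.68 and 7.67 on fasted and 6.57, 6.82, 6.21 and 5.85 on restricted arrays. Its fasted and restricted arrays overlapped with each other and lay below the fed mice, at -1.25 (standard error 0.33, adjusted p = 0.0175) and -1.98 (standard error 0.31, adjusted p = 0.000178).

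Ifitm3, which blocks viral entry from endosomes, was among the brightest members, at 14.88, 14.85 and 14.96 on the ad libitum arrays, 13.76, 13.29 and 13.55 on the fasted arrays and 13.87, 13.88, 13.95 and 14.17 on the restricted arrays. All fasted arrays lay below all restricted arrays. The fall was -1.36 (standard error 0.20, adjusted p = 0.000211) under fasting and -0.93 (standard error 0.19, adjusted p = 0.00148) under caloric restriction. Bst2, the tetherin that holds budding virus at the membrane, fell under fasting, at -1.05 (adjusted p = 0.00928), and under caloric restriction, at -0.68 (adjusted p = 0.0376). Mx2, a dynamin-like GTPase, the leucine-zipper protein Ifi35 and the receptor chaperone Rtp4 fell in restricted liver by 1.03, 0.92 and 0.97, and of these Ifi35 also fell in fasted liver, by 0.47. Mx1 was detected on 0 of 16 liver arrays.

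Isg15, the ubiquitin-like modifier, stood at 6.94, 7.36 and 7.62 on the ad libitum arrays, 6.43, 5.74 and 6.24 on the fasted arrays and 5.61, 5.09, 6.12 and 5.37 on the restricted arrays. Fasted and restricted arrays lay below all ad libitum arrays, and the probe was detected on only 1 of the 4 restricted arrays. The change was -1.76 (standard error 0.33, adjusted p = 0.000875) under caloric restriction and -1.17 (standard error 0.35, adjusted p = 0.0374) under fasting, and the second did not pass without ad libitum array 3 (-1.01, adjusted p = 0.126) or without fasted array 2 (-0.97, adjusted p = 0.141). Usp18, the protease that removes Isg15 from proteins and dampens the type I receptor, stood at 10.26, 10.10 and 9.92 on ad libitum, 9.87, 9.52 and 9.73 on fasted and 9.46, 9.63, 9.70 and 10.07 on restricted arrays. Its restricted arrays reached into the ad libitum range and neither value passed, at -0.38 (95% confidence interval -0.79 to 0.04, adjusted p = 0.164) under caloric restriction and -0.38 (95% confidence interval -0.83 to 0.06, adjusted p = 0.261) under fasting. The first was called in the fits that took the chip into account, as a block (-0.55, adjusted p = 0.0975) or within the chip that holds both groups (-0.55, adjusted p = 0.039), and also with the replicate block (-0.50, adjusted p = 0.0874) and without restricted array 4 (-0.50, adjusted p = 0.0801). Against wild-type arrays it was not (-0.07, adjusted p = 0.821), so whether Usp18 fell in restricted liver is not settled.

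The interferon-inducible GTPases, which attack the vacuoles of intracellular microbes, fell in full under both regimens in liver, 4 of 4 each, with medians of -1.72 and -1.13. Igtp stood at 10.73, 10.62 and 10.60 on the ad libitum arrays, 9.48, 9.67 and 9.13 on the fasted arrays and 8.79, 8.45, 8.67 and 8.41 on the restricted arrays, and the groups did not overlap. The change was -2.07 (standard error 0.17, adjusted p = 3.2e-07) under caloric restriction and -1.22 (standard error 0.18, adjusted p = 0.000242) under fasting. Gbp3 stood at 9.48, 9.55 and 9.25 on ad libitum, 7.98, 7.31 and 7.89 on fasted and 7.29, 7.51, 7.38 and 6.70 on restricted arrays. Both regimens lay more than a log2 unit below the fed mice and overlapped with each other, at -2.21 (standard error 0.27, adjusted p = 2.01e-05) and -1.70 (standard error 0.29, adjusted p = 0.000794). Gbp2 and Irgm1 fell by 1.38 and 0.85 under caloric restriction and by 1.03 and 0.57 under fasting.

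Among the genes of antigen processing, the immunoproteasome subunit Psmb9 stood at 10.18, 10.42 and 10.03 on the ad libitum arrays, 9.13, 9.04 and 9.05 on the fasted arrays and 8.40, 8.24, 8.26 and 8.43 on the restricted arrays. The groups formed separate steps, at -1.88 (standard error 0.19, adjusted p = 2.85e-06) under caloric restriction and -1.14 (standard error 0.20, adjusted p = 0.00121) under fasting. Its partner subunit Psmb8 stood at 6.64, 6.82 and 6.97 on ad libitum, 6.54, 6.80 and 7.50 on fasted and 6.80, 6.85, 5.91 and 6.86 on restricted arrays. These overlapped throughout, and 1 of the 4 restricted arrays lay apart from the others. Psmb8 had a value of -0.20 (95% confidence interval -0.78 to 0.37, adjusted p = 0.626) under caloric restriction, and the value was 0.027 without that array and 0.017 without chips 2 and 3. The peptide transporter Tap1 fell under caloric restriction, at -0.70 (adjusted p = 0.0171), and under fasting, at -0.62 (adjusted p = 0.074).

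Ifi27l2a, a small interferon-induced membrane protein, changed most of all members in restricted and in fasted liver. It stood at 9.69, 9.24 and 9.69 on the ad libitum arrays, 7.79, 7.81 and 7.47 on the fasted arrays and 6.78, 5.88, 6.53 and 6.43 on the restricted arrays. Each group lay apart from the others. The change was -3.13 (standard error 0.28, adjusted p = 7.81e-07) under caloric restriction, 8.78-fold lower, and -1.85 (standard error 0.30, adjusted p = 0.000494) under fasting, 3.6-fold lower. The ADP-ribosyltransferase Parp14 fell by 1.01 and 0.73. Where a member had further probes in liver, 13 of 13 had the sign of the main probe under caloric restriction and 12 of 13 under fasting, the exception being a probe of Irf9.

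**Figure D4:**
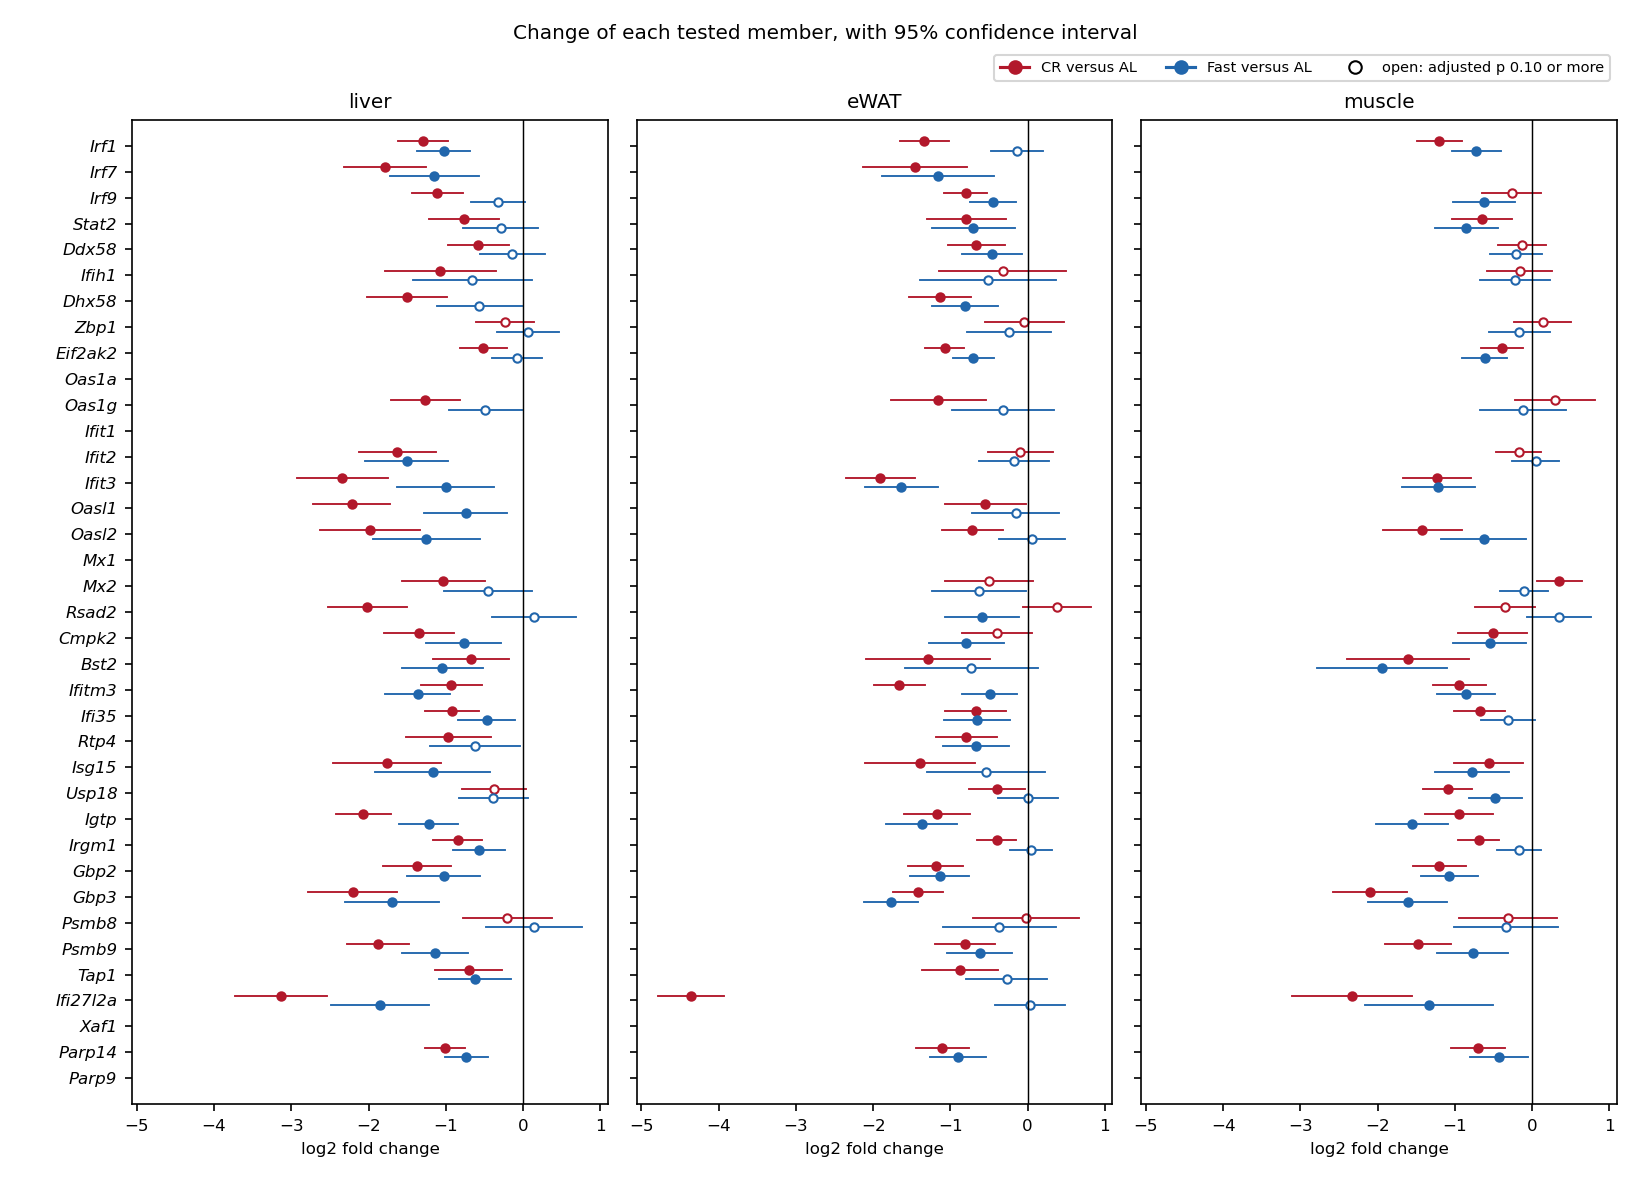
Points give the log2 fold change of each tested member against ad libitum with its 95% confidence interval, for caloric restriction and fasting in liver, adipose tissue and muscle, and open points mark an adjusted p of 0.10 or more. In restricted liver all 32 points lie below 0, from -3.13 for Ifi27l2a to -0.20 for Psmb8.

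Restricted and fasted liver were also compared directly. Of the 32 members, 13 were lower under caloric restriction and none higher, where 12.4% of all genes were lower, and without chips 2 and 3 it was 10 (8.75%). The largest differences were Rsad2 at -2.16 (standard error 0.24, adjusted p = 2.18e-05), Oasl1 at -1.47 (standard error 0.24, adjusted p = 0.000489), Ifit3 at -1.34 (standard error 0.28, adjusted p = 0.00328) and Ifi27l2a at -1.28 (standard error 0.28, adjusted p = 0.00458). Dhx58, Igtp and Irf9 differed by -0.94, -0.85 and -0.78. Irf7 passed at -0.64 (adjusted p = 0.0917) but not without chips 2 and 3, at -0.27 (adjusted p = 0.568). Ifit2, Isg15 and Gbp3 fell under both regimens, and their differences of -0.12 (95% confidence interval -0.62 to 0.38, adjusted p = 0.777), -0.59 (95% confidence interval -1.29 to 0.11, adjusted p = 0.243) and -0.51 (95% confidence interval -1.08 to 0.06, adjusted p = 0.217) did not pass.

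In adipose tissue all 4 transcription factors fell under caloric restriction and 3 under fasting. Irf7 stood at 8.0, 7.53 and 7.53 on the ad libitum arrays, 6.53, 6.81 and 6.23 on the fasted arrays and 5.83, 5.88, 7.05 and 6.15 on the restricted arrays. Both regimens lay below the fed mice, at -1.46 (standard error 0.31, adjusted p = 0.00205) and -1.16 (standard error 0.34, adjusted p = 0.0236). The call under fasting was lost against wild-type arrays (-0.58, adjusted p = 0.234). Without the 4 arrays at the third and the fourth position, which leaves ad libitum array 3 alone, the value under fasting was -1.01. Irf1 fell under caloric restriction, at -1.34 (adjusted p = 8.21e-06), and had a value of -0.14 (adjusted p = 0.599) under fasting. Among the effectors Ifit3 stood at 11.25, 11.17 and 11.35 on ad libitum, 9.67, 9.48 and 9.71 on fasted and 9.34, 9.38, 9.06 and 9.61 on restricted arrays. It fell under both regimens, at -1.91 (standard error 0.21, adjusted p = 7.5e-06) and -1.63 (standard error 0.22, adjusted p = 0.000167). Ifitm3 stood at 14.62, 14.29 and 14.48 on ad libitum, 13.97, 13.85 and 14.10 on fasted and 12.70, 12.76, 12.90 and 12.86 on restricted arrays. Its restricted arrays formed a tight group more than a log2 unit below the fed mice, at -1.66 (standard error 0.15, adjusted p = 1.84e-06), and its fasted arrays lay between, at -0.49 (standard error 0.17, adjusted p = 0.0483).

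The GTPases fell in adipose tissue as in liver, 4 of 4 under caloric restriction and 3 of 4 under fasting. Gbp3 stood at 11.26, 11.35 and 11.46 on the ad libitum arrays, 9.90, 9.21 and 9.66 on the fasted arrays and 9.96, 9.87, 10.02 and 9.92 on the restricted arrays. Fasted arrays were as low as restricted ones, at -1.77 (standard error 0.16, adjusted p = 8.06e-06) and -1.42 (standard error 0.15, adjusted p = 6.03e-06). Gbp2 stood at 12.72, 12.87 and 12.95 on ad libitum, 12.13, 11.31 and 11.69 on fasted and 11.73, 11.49, 11.73 and 11.67 on restricted arrays, and Igtp at 10.48, 10.47 and 10.53 on ad libitum, 9.52, 8.76 and 9.10 on fasted and 9.36, 9.03, 9.57 and 9.34 on restricted arrays. Neither overlapped with the fed mice, and the changes under fasting were -1.14 (standard error 0.18, adjusted p = 0.000469) and -1.37 (standard error 0.21, adjusted p = 0.0005). Parp14 stood at 11.44, 11.28 and 11.44 on ad libitum, 10.69, 10.47 and 10.30 on fasted and 10.37, 10.27, 10.27 and 10.23 on restricted arrays, a change of -0.90 (standard error 0.17, adjusted p = 0.00192) under fasting. Without the same 4 arrays, which leaves ad libitum array 3 alone, the value was -0.94. Isg15 stood at 7.70, 7.63 and 7.39 on ad libitum, 7.11, 7.08 and 6.90 on fasted and 5.12, 6.60, 6.93 and 6.06 on restricted arrays. Both regimens lay below the fed mice, and it fell under caloric restriction, at -1.39 (standard error 0.33, adjusted p = 0.00411), and did not pass under fasting, at -0.54 (adjusted p = 0.325).

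The values of Ifi27l2a in adipose tissue fell into separate levels. It stood at 15.67, 15.63 and 15.59 on the ad libitum arrays, 15.46, 15.75 and 15.77 on the fasted arrays and 11.32, 11.20, 11.29 and 11.28 on the restricted arrays. Fed and fasted arrays overlapped and were close to the top of the scale, with a raw signal 71.1 to 84.5% of that of the brightest probe of the array. Differences between values this high can be compressed, so the fold is a lower bound, and restricted arrays were at least 20.5-fold lower, at -4.36 (standard error 0.20, adjusted p = 3.3e-09). Under fasting the value was 0.03 (adjusted p = 0.946), which near the top of the scale does not show that the gene stayed the same. The 4 low arrays are those of chip 2 and the 6 high ones those of chip 3, so the step follows the chip as closely as the diet. On the chips not exchanged, wild-type adipose arrays read 15.34, 15.46 and 15.59.

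Under caloric restriction Rsad2 and Ifit2 were called lower in liver and not in adipose tissue or muscle. In adipose tissue Rsad2 stood at 10.25, 10.11 and 10.75 on the ad libitum arrays, 10.02, 9.51 and 9.82 on the fasted arrays and 10.28, 10.77, 10.86 and 11.07 on the restricted arrays. Restricted arrays overlapped the upper end of the fed mice, at 0.38 (95% confidence interval -0.07 to 0.82, adjusted p = 0.165), whereas fasted arrays lay below them, at -0.59 (standard error 0.22, adjusted p = 0.0729). Ifit2 stood at 8.88, 8.88 and 9.44 on ad libitum, 8.84, 8.75 and 9.07 on fasted and 9.03, 8.86, 8.97 and 9.01 on restricted arrays, overlapping throughout, at -0.10 (95% confidence interval -0.52 to 0.33, adjusted p = 0.746) and -0.18 (95% confidence interval -0.63 to 0.27, adjusted p = 0.622). Of the other members, Ifih1, Zbp1, Mx2, Cmpk2 and Psmb8 did not pass under caloric restriction either.

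The adipose counts rest wholly on the exchanged chips. Under the labels as given, which put liver and muscle arrays into these groups, 4 members passed under caloric restriction, all higher (2.46% of all genes). With only the 4 arrays at the third and the fourth position kept as labelled, 0 members passed by limma under caloric restriction. In that fit 0 of all 10506 genes passed either. With those 4 arrays left out, 18 members fell under caloric restriction (10.6% of all genes) and 4 under fasting (3.07%). Leaving them out keeps ad libitum array 3 alone, so the control has no spread of its own. The counts of that fit therefore cannot show whether the falls hold without those arrays. Its median member change was -1.02 under caloric restriction and -0.64 under fasting. Fasted and ad libitum adipose arrays share chip 3, and a fit of that chip alone called 21 members lower (21.9% of all genes). Leaving out ad libitum array 3 reduced the count under fasting from 17 to 11. Against wild-type arrays of the other chips, 17 members fell under caloric restriction (23.3% of all genes) and 1, Zbp1, rose, and 11 fell under fasting (14.7%) and 1, Irf1, rose.

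In muscle all 4 GTPases, 6 of 9 effectors and 1 of 5 sensors fell under caloric restriction (25.7% of all genes), and 3, 5 and 1 of them under fasting (21.4%). The sensors thus fell no more often than all genes. Gbp3 stood at 9.47, 9.58 and 9.32 on the ad libitum arrays, 8.31, 7.62 and 7.61 on the fasted arrays and 7.74, 6.88, 7.42 and 7.37 on the restricted arrays. Both regimens lay below the fed mice, at -2.10 (standard error 0.23, adjusted p = 2.03e-06) under caloric restriction and -1.61 (standard error 0.24, adjusted p = 9.43e-05) under fasting. Igtp stood at 7.99, 8.04 and 8.07 on ad libitum, 6.41, 6.49 and 6.52 on fasted and 7.32, 6.94, 7.64 and 6.45 on restricted arrays. Here the fall was larger under fasting, at -1.56 (standard error 0.22, adjusted p = 4.98e-05) against -0.95 (standard error 0.21, adjusted p = 0.00139), and the regimens differed by 0.61 (adjusted p = 0.0286). Gbp2 stood at 9.96, 10.31 and 10.19 on ad libitum, 9.41, 9.03 and 8.82 on fasted and 8.91, 9.09, 9.03 and 8.79 on restricted arrays, a change of -1.07 (standard error 0.17, adjusted p = 0.000186) under fasting.

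Ifi27l2a stood at 11.42, 11.86 and 9.96 on the ad libitum arrays of muscle, 10.04, 9.09 and 10.11 on the fasted arrays and 8.93, 8.59, 9.16 and 8.33 on the restricted arrays. 1 ad libitum array lay among the fasted arrays, and the restricted arrays lay below both apart from an overlap with 1 fasted array. It fell by 2.33 under caloric restriction (standard error 0.37, adjusted p = 8.72e-05) and by 1.33 under fasting (standard error 0.39, adjusted p = 0.0151). The second did not pass against wild-type arrays (-0.83, adjusted p = 0.105). It was -1.03 with the chip as a block and -1.01 within the chip that holds both groups, each resting on 1 fasted array. Bst2 stood at 6.17, 7.32 and 7.84 on ad libitum, 4.78, 5.23 and 5.49 on fasted and 5.86, 5.69, 5.38 and 5.07 on restricted arrays. The ad libitum arrays were spread, and all others lay below them, at -1.61 (standard error 0.37, adjusted p = 0.00227) and -1.94 (standard error 0.40, adjusted p = 0.00129). On the fasted arrays it was not above background, so the fall there was at least 2.41-fold.

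Ifit3 stood at 8.69, 8.90 and 9.07 on the ad libitum arrays of muscle, 7.23, 7.71 and 8.08 on the fasted arrays and 7.44, 7.43, 8.01 and 7.75 on the restricted arrays, at -1.23 (standard error 0.21, adjusted p = 0.000169) and -1.21 (standard error 0.22, adjusted p = 0.000525). Psmb9 stood at 8.27, 8.48 and 8.21 on ad libitum, 7.56, 7.69 and 7.39 on fasted and 7.01, 6.41, 7.02 and 6.93 on restricted arrays, at -1.48 (standard error 0.20, adjusted p = 2.57e-05) and -0.77 (adjusted p = 0.0121). In both genes neither regimen overlapped with the fed mice. Oasl2 stood at 7.43, 7.80 and 7.67 on ad libitum, 7.61, 7.06 and 6.35 on fasted and 6.40, 6.15, 6.37 and 5.92 on restricted arrays. Its fasted arrays reached into the fed range and its restricted arrays did not, at -1.42 (standard error 0.24, adjusted p = 0.000184). With the chip as a block, where 1 fasted array ties the chips, the value under caloric restriction shrank to -0.51. Irf1 fell under caloric restriction, at -1.20 (adjusted p = 3.89e-06), and under fasting, at -0.72 (adjusted p = 0.00129), and Usp18, which did not pass in liver, fell by 1.09 and 0.48.

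Stat2 and Isg15 were not above background on the lower side in muscle, so their falls are bounds of at least 1.16-fold and 1.17-fold under caloric restriction and at least 1.18-fold and 1.19-fold under fasting. The 1 member called higher in restricted muscle was Mx2, at 5.35, 5.58 and 5.27 on the ad libitum arrays and 5.88, 5.60, 5.84 and 5.69 on the restricted arrays. The groups did not overlap, at 0.35 (standard error 0.14, adjusted p = 0.0485), but the probe was detected on none of the ad libitum arrays and on 2 of the 4 restricted ones. Against the lowest signal above background no fold remained, so a rise was not measured. Rsad2 stood at 8.10, 8.20 and 8.39 on ad libitum, 8.50, 8.79 and 8.43 on fasted and 8.07, 7.90, 8.02 and 7.51 on restricted arrays. Its fasted arrays lay above the fed mice and its restricted arrays below, and neither value passed, at 0.35 (adjusted p = 0.193) and -0.36 (adjusted p = 0.128). Ifit2 stood at 7.60, 7.46 and 7.82 on ad libitum, 7.64, 7.88 and 7.50 on fasted and 7.38, 7.63, 7.60 and 7.21 on restricted arrays, overlapping throughout. Restricted muscle compared directly with fasted muscle had 8 members lower (20.7% of all genes) and 2 higher (21.3%). The lower ones were Ifi27l2a at -1.0 (adjusted p = 0.0452), Oasl2 at -0.80 (adjusted p = 0.0178), Psmb9 at -0.71 (adjusted p = 0.0132), Rsad2 at -0.70 (adjusted p = 0.00728), Usp18 at -0.62 (adjusted p = 0.00482), Irgm1, Irf1 and Ifi35, and the higher ones Igtp and Mx2. The calls of Ifi27l2a and Oasl2 were each lost when fasted array 1 was left out, at -0.85 (adjusted p = 0.146) and -0.50 (adjusted p = 0.116), and that of Ifi27l2a also without fasted array 3 (-0.81, adjusted p = 0.154) or restricted array 4 (-0.85, adjusted p = 0.111).

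The muscle counts were repeated with other fits and controls. With the chip as a block 14 of 27 members were lower (14.4% of all genes) and 1, Psmb8, higher under caloric restriction, and 13 were lower under fasting (16.5%). Chips 2 and 4 share only the fasted group in muscle, with 1 array on chip 2, so both block counts rest on that array. Within chip 2, which holds that array and the ad libitum ones, the median of the 23 members tested was -0.73 under fasting. Wild-type muscle lay on a chip that was not exchanged. Against it, with chips 2 and 3 left out, 21 members fell under caloric restriction (29.9% of all genes) and 1 rose, and 17 fell under fasting (26.5%) and 2 rose. Restricted muscle against fasted muscle, without those chips, had 7 members lower (20.7%) and 3 higher.

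Across tissues, 27 members were tested in all 3. Under caloric restriction 16 of them fell in every tissue, namely Irf1, Stat2, Eif2ak2, Ifit3, Oasl2, Bst2, Ifitm3, Ifi35, Isg15, Igtp, Irgm1, Gbp2, Gbp3, Psmb9, Ifi27l2a and Parp14. A further 5 fell in 2 tissues, 4 in 1 and 2, Zbp1 and Psmb8, in none. Under fasting 8 fell in every tissue, namely Ifit3, Ifitm3, Cmpk2, Igtp, Gbp2, Gbp3, Psmb9 and Parp14, with 9 in 2 tissues, 5 in 1 and 5 in none. How many of all genes fell in every tissue was not counted, so these counts have no background beside them. The differences between tissues were tested themselves. The effect of caloric restriction in adipose tissue minus that in liver was called positive, a weaker or missing fall, for 9 of 32 members and negative for 3. Of all genes it was positive in 15.2% and negative in 16.2%, whatever the direction of their change. In muscle minus liver it was positive for 10 of 27 members (17.8% of all genes) and negative for 1 (18.1%). A probe near background in muscle has little room to fall there, and of the 10 members Oas1g, Mx2, Isg15 and Ifih1 were detected on only 5, 4, 7 and 3 of 16 muscle arrays. Among genes detected on at least 8 of the 16 arrays of both tissues, the difference was positive for 6 of 23 members (19.9% of all genes). It was negative for 1, Usp18 (20%). The 6 were Rsad2, Ifit2, Igtp, Ifit3, Irf9 and Cmpk2, a share close to that of all genes.

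Rsad2 had the largest difference in both, with an effect higher by 2.39 (standard error 0.33, adjusted p = 4.44e-06) in adipose tissue and by 1.66 (standard error 0.31, adjusted p = 0.000182) in muscle than in liver. Ifit2 also differed in both, by 1.53 (adjusted p = 0.00069) and 1.46 (adjusted p = 0.000226). Oasl1 and Oasl2 in adipose tissue differed by 1.67 (adjusted p = 0.000793) and 1.26 (adjusted p = 0.0142), and Psmb9 by 1.07 (adjusted p = 0.00344). In muscle Igtp differed by 1.12 (adjusted p = 0.00232), and the differences fitted for Oas1g, Mx2 and Isg15, at 1.56, 1.38 and 1.19, have a muscle side at or near background and are not measured sizes. Ifi27l2a, Ifitm3 and Eif2ak2 fell further in adipose tissue than in liver, by -1.22, -0.73 and -0.56, and Usp18 further in muscle, by -0.72. For fasting the difference between adipose tissue and liver was positive for 6 of 32 members (8.42% of all genes) and negative for 1 (9.27%). Ifi27l2a, 1 of the 6, lies near the top of the scale in adipose tissue, so its difference was not measured. Ifit2 was weaker in both other tissues, at 1.33 (adjusted p = 0.00919) in adipose tissue and 1.55 (adjusted p = 0.00037) in muscle. Eif2ak2 was stronger in both, at -0.62 (adjusted p = 0.0289) and -0.53 (adjusted p = 0.053). Ifit2 and Eif2ak2 were the 2 members that differed between muscle and liver, where the difference was positive in 14% of all genes and negative in 14.4%. Leaving out the 4 adipose arrays of the third and the fourth position left 1 ad libitum adipose array, so no count of differences is given for that fit. With the chip as a block, 3 of 27 members (11.1%) had a positive restriction difference between muscle and liver, close to the 10.3% of all genes. They were Rsad2, Ifit2 and Mx2, of which Mx2 lies near background in muscle. Only the fasted arrays tie the chips of ad libitum and restricted muscle in that fit.

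Few members were called lower in FGF21-Tg mice. In liver 1 of 32 members was lower than in wild-type littermates (2.36% of all genes; 2.07% without chips 2 and 3, with the same single call), with a median of -0.14. This was Oasl1, at 9.65, 9.62 and 8.60 on the wild-type arrays and 7.77, 7.64 and 8.26 on the FGF21-Tg arrays. The groups did not overlap, at -1.40 (standard error 0.25, adjusted p = 0.00516). With the chip as a block, which compares only wild-type array 3 with the FGF21-Tg arrays, the value shrank to -0.71. Irf7 stood at 8.20, 7.89 and 7.88 on wild-type and 7.08, 6.93 and 8.01 on FGF21-Tg liver arrays, with 1 FGF21-Tg array among the wild-type ones, at -0.65 (adjusted p = 0.217), and without that array it passed, at -0.98 (adjusted p = 0.0511). In adipose tissue Ifi27l2a stood at 15.34, 15.46 and 15.59 on wild-type and 13.53, 13.93 and 14.68 on FGF21-Tg arrays, and Ifitm3 at 14.21, 14.10 and 14.38 and 13.27, 13.94 and 13.85. These were the 2 of 32 members lower (3.45%), at -1.41 (standard error 0.21, adjusted p = 0.00406) and -0.54 (standard error 0.17, adjusted p = 0.0881). Chips 2 and 3 hold no FGF21-Tg or wild-type littermate arrays, so leaving them out changes only the normalization, the filter and the estimated spread. Neither then passed, at -1.44 (adjusted p = 0.296) and -0.54 (adjusted p = 0.481), with sizes nearly unchanged. In that fit 0 passed by limma, 3 had an unadjusted p under 0.05 and 0.0208% of all genes were lower. The call of Ifitm3 was also lost without wild-type array 3 (-0.47, adjusted p = 0.225), FGF21-Tg array 1 (-0.33, adjusted p = 0.208) or FGF21-Tg array 3 (-0.62, adjusted p = 0.123). Epididymis transcripts in the FGF21-Tg adipose arrays had a mean log2 level of 6.18 to 12.72 against 5.18 to 7.24 in wild-type, and their part was not tested. In muscle 0 of 27 members passed by limma (0.535% of all genes lower). There 11 were lower at an unadjusted p under 0.05, for which no share of all genes is given. The median in muscle was -0.39, against -0.02 for all genes, and 23 of 27 values were below 0. Every FGF21-Tg array lay below every wild-type array for 3 of 32 members in liver (8.59% of all genes), 5 of 32 in adipose tissue (8.31%) and 8 of 27 in muscle (8.72%). Without chips 2 and 3, 1 member passed in muscle, Eif2ak2, at -0.52 (adjusted p = 0.0467) (0.866% of all genes).

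Receptors, kinases and sensors that lie upstream of the members were counted in the same way. Of all genes, 17.9% fell in restricted and 9.7% in fasted liver, and 13.8% in restricted liver without chips 2 and 3. The shares were 25.1% and 15.5% in adipose tissue and 25.7% and 21.4% in muscle. Of 8 receptor chains and kinases tested in liver, Tyk2 and Jak1 fell under caloric restriction, by 0.54 and 0.41, and 0 changed under fasting by limma, where 2 had an unadjusted p under 0.05. Of 7 genes that sense nucleic acid and signal towards interferon production, 0 changed in liver under either regimen by limma, and 1 had an unadjusted p under 0.05 in each. In fasted muscle 4 of 6 such genes rose, the kinase Tbk1 by 1.47, the endosomal receptor Tlr7 by 0.82 and the adaptors Myd88 and Mavs by 0.68 and 0.49. Of all genes, 25.9% rose in restricted muscle. The shares that rose in fasted muscle and in adipose tissue are not given, so rises there have no background beside them. The 1 interferon gene tested in each tissue did not pass in any. Outside liver the receptor chains and kinases moved in both directions. In restricted adipose tissue the interferon gamma receptor chain Ifngr1 rose by 0.68 and Il10rb and Tyk2 fell by 0.90 and 0.54, and in fasted adipose tissue Ifngr1 rose by 0.76 and Il10rb fell by 0.60. In restricted muscle Jak2, Jak1 and Ifngr2 fell by 1.14, 0.70 and 0.41 and Tyk2 rose by 0.49, and in fasted muscle Ifngr1 and Jak1 rose by 0.83 and 0.47 and Jak2 fell by 0.48. Other STAT, IRF and SOCS genes fell in 3 of 6 in restricted liver, with Irf5 at -1.66, Irf8 at -0.92 and Irf2 at -0.36, and in 2 of 6 in fasted liver. In restricted adipose tissue Irf5 and Irf8 fell by 1.37 and 1.0 and Irf2 rose by 0.44, and in restricted muscle Irf5 fell by 0.87 while Stat3, Irf3 and Irf2 rose by 0.67, 0.51 and 0.37. Without chips 2 and 3, the counts in restricted liver were 1 of 7 receptor chains and kinases lower, 1 of 7 sensing genes higher and 2 of 6 STAT, IRF and SOCS genes lower.

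Interferon-stimulated genes outside the members were counted from a second list. Of all genes, 17.9% fell in restricted and 9.7% in fasted liver, and 13.8% in restricted liver without chips 2 and 3. The shares were 25.1% in restricted adipose tissue and 25.7% in restricted muscle. In restricted liver 17 of 24 fell and none rose, and in fasted liver 8 fell and 1 rose. Cxcl9, the chemokine that interferon gamma induces to attract T cells, changed most in liver, by -3.87 under caloric restriction and -2.52 under fasting, and its values were -3.06 and -1.07 in adipose tissue and -2.24 and -1.19 in muscle. Ly6e, the Isg15-activating enzyme Uba7 and Trim30a followed in restricted liver, at -1.96, -1.92 and -1.66. In restricted adipose tissue 17 of 28 fell and 1 rose, and in restricted muscle 11 of 20 fell and 4 rose, where 25.9% of all genes rose. Further GTPases fell in 3 of 3 in liver under both regimens, with Irgm2 at -2.10, Ifi47 at -2.06 and Gbp7 at -1.32 in restricted liver. MHC class I genes and their loading factors fell in 6 of 11 in restricted liver, 3 of 11 in restricted adipose tissue, where 1 rose, and 8 of 10 in restricted muscle. The adipose count was close to the share of all genes. Without chips 2 and 3, 14 of 24 other interferon-stimulated genes fell and 1 rose in restricted liver, and 3 of 3 GTPases and 3 of 11 MHC class I genes fell.

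Markers of other cell types also changed, some along with the members and some not, and their part in these results was not tested. Of all genes, 17.9% fell in restricted and 9.7% in fasted liver, and 13.8% in restricted liver without chips 2 and 3. The shares were 25.1% and 15.5% in adipose tissue and 25.7% and 21.4% in muscle. Genes of MHC class II, which mark antigen-presenting cells and are themselves induced by interferon gamma, fell in 6 of 6 in restricted liver with a median of -2.38, 7 of 7 in restricted adipose tissue (-2.43) and 6 of 6 in restricted muscle (-3.21). Under fasting they fell in 6 of 6 in liver (-1.74), 4 of 7 in adipose tissue (-0.79) and 6 of 6 in muscle (-1.24). Their mean log2 level in liver was 9.69 to 10.10 on ad libitum, 7.92 to 8.69 on fasted and 7.47 to 7.77 on restricted arrays. Macrophage and Kupffer cell markers fell in 7 of 13 in restricted liver, where Marco rose by 1.77, and in 11 of 13 in fasted liver, and their mean level was 8.69 to 9.31 on ad libitum, 7.95 to 8.75 on fasted and 8.41 to 8.73 on restricted arrays. In adipose tissue 10 of 12 fell under caloric restriction and 1 under fasting. In muscle 1 of 10 fell and 3 rose under caloric restriction, where 25.9% of all genes rose, and 4 fell under fasting. The mean of the hepatocyte list in liver was 14.42 to 14.72 on all arrays, a mean of very bright probes in which changes can be compressed, and of its 7 genes tested Cps1 rose in fasted liver by 0.52 (adjusted p = 0.0439). Erythroid genes fell in 4 of 4 in restricted liver, endothelial genes in 5 of 8 in restricted adipose tissue, and S100a8, the 1 neutrophil gene tested in muscle, was higher by 4.22 in restricted muscle. Of 12 marker genes of T and natural killer cells, which make interferon gamma, 3 were tested in liver, where 2 fell under caloric restriction, Klrd1 by 0.65 and Cd8b1 by 0.62, and 0 passed under fasting by limma, with 0 at an unadjusted p under 0.05. Their mean log2 level in liver was 5.95 to 6.11 on ad libitum, 5.74 to 6.0 on fasted and 5.30 to 5.62 on restricted arrays, and Cd3d, Cd3g, Cd4 and Cd8a were not tested there. In restricted adipose tissue 4 of 7 fell, among them Cd2 by 1.39 and Cd3g by 1.07, while Cd3e rose by 1.44, and 0 passed under fasting by limma, with 0 at an unadjusted p under 0.05. In muscle Cd8b1, 1 of 3 tested, fell by 1.49 and 1.21 under caloric restriction and fasting. Of 3 plasmacytoid dendritic cell genes tested in liver, 1 fell under each regimen. Without chips 2 and 3, 6 of 6 MHC class II, 6 of 13 macrophage, 2 of 3 T and natural killer cell and 4 of 4 erythroid genes fell in restricted liver, and 0 of 3 plasmacytoid dendritic cell genes by limma, with 0 at an unadjusted p under 0.05.

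**Figure D5:**
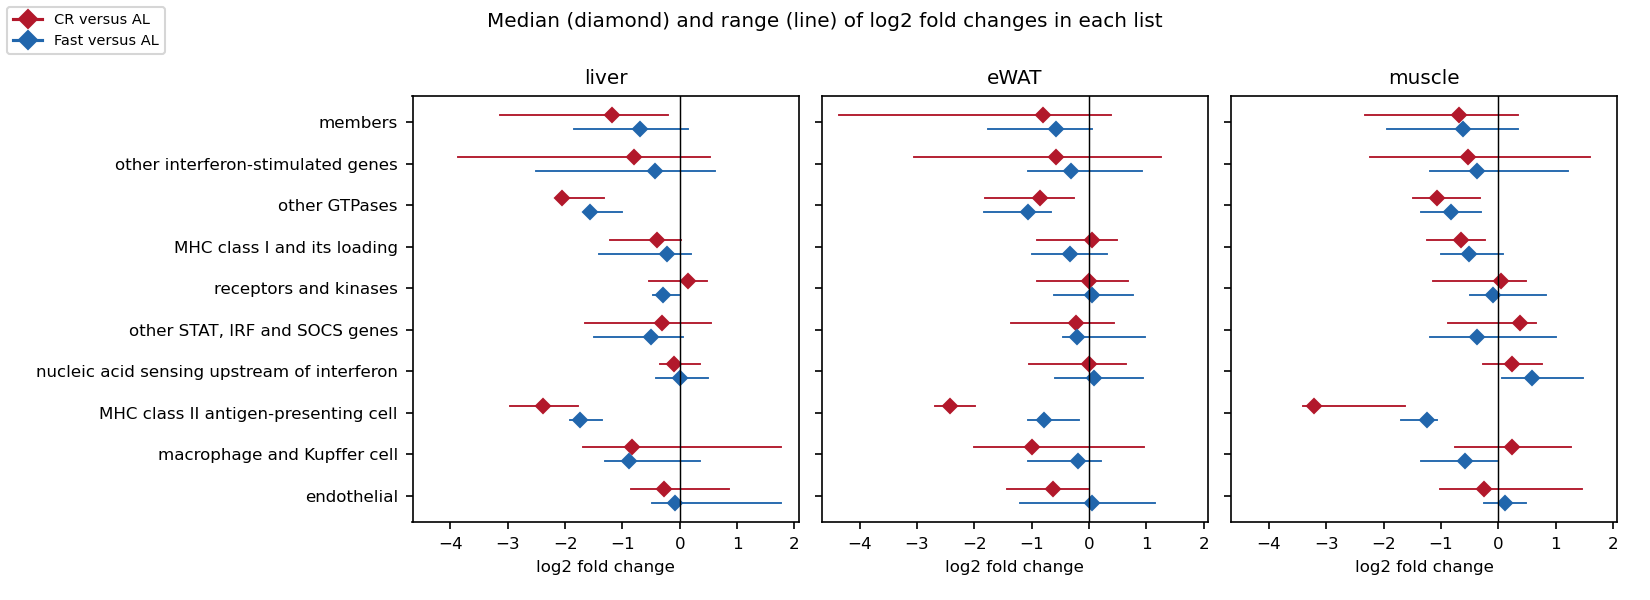
Diamonds give the median log2 fold change against ad libitum of the members, of other genes of the pathway and of cell type marker lists in the 3 tissues under caloric restriction and fasting, and lines the range from the lowest to the highest gene. In restricted liver MHC class II has the lowest median, at -2.38, while receptors and kinases and nucleic acid sensing lie at 0.15 and -0.10 there.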

How the data were processed

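The authors exported intensities, the mean bead signal of a probe before any normalization, for 48 arrays with BeadStudio, whose version is not given in the sources used here. A detection p-value, also deposited, accompanies each intensity. The authors also deposited log2 values (background corrected by a model, then quantile normalized), which served as an alternative. Intensities were background corrected with limma 3.58.1 in R 4.3.3 (nec, offset 16), quantile normalized over each tissue after the exchange of labels on chips 2 and 3, and log2 transformed. Median signals were 182 to 265 and 42.0 to 56.3% of probes were detected, and precision is limited by the number of arrays. The brightest probe stood for a gene. All groups of 1 tissue entered the same fit with empirical Bayes, and differences between tissues were fitted as contrasts of contrasts. Values on every array were given for the 12 called members with the largest change in restricted liver, the 6 largest in each other comparison, and Irf7, Stat2, Irf9, Irf1, Isg15, Usp18, Ifit1 and Psmb8 in liver. Of other lists the counts and up to 4 called genes with the largest change were given. Where a probe was not above background on every array of a group, the fold change is a lower bound. Members and lists were chosen with earlier results of these data known. The fit was tested on simulated data. Alternatives were the labels as given, leaving out chips 2 and 3 or the 4 arrays at the third and the fourth position, a block for the chip or for the replicate number, other background corrections, scalings and detection filters, a stricter threshold, and leaving out each array. Wild-type controls without chips 2 and 3, and detection on at least 8 arrays of both tissues for muscle against liver, were added after seeing the data.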

Additional observations from a re-analysis of the deposited data

Results flagged for a closer look

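In 4 of 37 groups of 4 arrays, 1 array lay apart from the other arrays by more than Dixon's 95% critical value, which chance alone gives in about 1 in 20 groups. Oasl1 on restricted liver array 1 was 7.43, with the next at 6.90. Irf9 on the same array was 8.77, with the next at 8.40. Psmb8 on restricted liver array 3 was 5.91, with the next at 6.80. Psmb9 on restricted muscle array 2 was 6.41, with the next at 6.93.

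For caloric restriction, the effect in adipose tissue minus the effect in liver passed the test of the difference in limma for 12 members. On the log2 scale it was 2.39 for Rsad2, 1.67 for Oasl1, 1.53 for Ifit2, 1.26 for Oasl2, 1.07 for Psmb9, 0.95 for Cmpk2, 0.90 for Igtp, 0.79 for Gbp3 and 0.45 for Irgm1, where the fall was weaker or missing in adipose tissue. It was -1.22 for Ifi27l2a, -0.73 for Ifitm3 and -0.56 for Eif2ak2, where the fall was larger. The effect in muscle minus that in liver was 1.66 for Rsad2, 1.56 for Oas1g, 1.46 for Ifit2, 1.38 for Mx2, 1.19 for Isg15, 1.12 for Igtp, 1.11 for Ifit3, 0.91 for Ifih1, 0.84 for Irf9 and 0.84 for Cmpk2, and it was -0.72 for Usp18. In muscle Oas1g, Mx2, Isg15 and Ifih1 were detected on 5, 4, 7 and 3 of 16 arrays, so their values there had little room to fall and these 4 differences are not measured sizes.

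For fasting, the effect in adipose tissue minus that in liver was 1.88 for Ifi27l2a, whose fed and fasted adipose arrays lie near the top of the scale so that the size was not measured, 1.33 for Ifit2, 1.31 for Oasl2, 0.89 for Irf1, 0.87 for Ifitm3, 0.61 for Irgm1 and -0.62 for Eif2ak2. In muscle it was 1.55 for Ifit2 and -0.53 for Eif2ak2.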

How the results depend on the processing

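The fall of members in liver kept its direction under every alternative run except single genes named here. Array number, 1 to 4 in a group of the fits run, limits precision. Isg15 and the muscle values of Stat2, Mx2 and Bst2 lie near background, and adipose results rest on chips 2 and 3. Of 2556 values of named members under alternatives, 2348 kept direction and side of the threshold, 151 were no longer called, 12 became called and 45 turned sign.

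Under the labels as given, groups on chips 2 and 3 hold arrays of other tissues by their defining transcripts, so counts there compare tissues as well as diets. The members called then numbered 6 in fasted liver (4.43% of all genes called), 0 in FGF21-Tg liver (0.587%), 4 in restricted (4.58%) and 2 in fasted adipose tissue (4.99%). In FGF21-Tg adipose tissue it was 0 (0.0375%) and in restricted muscle 29 (67.5%). The differences in effect from liver then numbered 23 for restricted adipose tissue (35%), 17 for restricted muscle (58.2%) and 0 for fasted adipose tissue (6.25%). With the arrays at the third and the fourth position as labelled, restricted adipose tissue had 0 (0% of all genes called) and fasted adipose tissue 1 (5.96%). FGF21-Tg adipose tissue had 0 in that fit, with 22 differences of restricted adipose tissue from restricted liver. Without those arrays FGF21-Tg adipose tissue had 1. Leaving them out left 1 ad libitum adipose array, so counts against it show nothing about robustness and are not repeated here. Without chips 2 and 3 FGF21-Tg adipose tissue had 0 and FGF21-Tg muscle 1. With the chip as a block FGF21-Tg liver had 0, FGF21-Tg adipose tissue 4, FGF21-Tg muscle 1 and restricted muscle against liver 3. Within shared chips FGF21-Tg liver, FGF21-Tg adipose tissue and fasted muscle each left 1 array in a group, so counts are not given. The chip block rests on the same arrays in these comparisons.

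With the deposited log2 values, which span a narrower range, FGF21-Tg liver had 2 (6.16% of all genes called) and FGF21-Tg muscle 1. Restricted against fasted liver then had 6, restricted against fasted muscle 6 and fasted muscle against liver 6. Without background correction FGF21-Tg liver had 2 (7.83%) and FGF21-Tg muscle 2. With detection on at least 8 arrays of both tissues, chosen after seeing the data, restricted muscle against liver had 7. At a detection p under 0.01 FGF21-Tg liver had 2 (7.78%), FGF21-Tg muscle 1 and restricted muscle against liver 7. With every probe FGF21-Tg liver had 2 (5.43%) and FGF21-Tg adipose tissue 1. The latter also had 1 with median scaling, no detection filter or an adjusted p under 0.05, and 0 in a fit of only its own groups. The FGF21-Tg liver counts are of 32 members. All other counts of this paragraph are given without the share of all genes, so they have no background beside them. Fasted adipose tissue against liver had 4 with median scaling and 13 with wild-type controls. Fasted muscle against liver had 4 with an offset of 1, 1 with median scaling, with only the groups compared or at an adjusted p under 0.05, 10 with wild-type controls and 9 when chips 2 and 3 were also left out. With a change over 2-fold also required, 14, 5 and 1 remained in restricted, fasted and FGF21-Tg adipose tissue, 9 and 6 in restricted and fasted muscle, 4 and 0 between restricted and fasted liver and muscle, and 6, 7, 3 and 1 between tissues for restricted adipose tissue and muscle and fasted adipose tissue and muscle.

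Leaving out 1 array at a time gave 28 to 29 in restricted, 13 to 18 in fasted and 1 to 3 in FGF21-Tg liver, 23 to 26, 11 to 16 and 1 to 4 in adipose tissue and 17 to 19, 13 to 19 and 0 to 1 in muscle. FGF21-Tg liver reached 3 (4.13% of all genes called) without FGF21-Tg array 3, FGF21-Tg adipose tissue 4 without wild-type array 1, and FGF21-Tg muscle 1 without FGF21-Tg array 1. Restricted against fasted gave 9 to 13 in liver and 8 to 12 in muscle, and the tissue differences 10 to 12, 9 to 12, 6 to 7 and 1 to 4, the last reaching 4 without ad libitum muscle array 1. With group means removed, same-numbered arrays of different groups correlated at -0.07 to 0.12 in liver, -0.47 to 0.49 in adipose tissue and -0.09 to 0.12 in muscle. These groups are different mice, so the values cannot show whether a number marks the same mice across tissues. That pairing was not tested, and the differences between tissues were fitted as if the tissues were independent. With the replicate block 29, 18 and 1 members were called in liver, 27, 18 and 1 in adipose tissue and 19, 17 and 0 in muscle. These counts, and those without single arrays, are mostly given without the share of all genes and show only how far the counts moved.

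Signs turned as follows, on the log2 scale. Under the labels as given, groups on chips 2 and 3 mix tissues by their defining transcripts, so those values compare tissues as well as diets. For the other fits the cause was not tested. In restricted adipose tissue under the labels as given Ifitm3 was 1.36, Irf7 0.76, Ifit3 0.52, Isg15 0.45 and Ifi27l2a 0.11, and with the third and the fourth position as labelled Ifi27l2a was 0.74, Ifit3 0.28, Ifitm3 0.18 and Gbp3 0.15. Against liver the effect on Ifi27l2a was then 1.10 and 3.87, and that of fasting on Eif2ak2 0.14 with the positions as labelled. Also under the labels as given, Ifit2 was -0.087 and Rsad2 -0.67 in restricted adipose tissue against liver, Ifit2 -0.14 and Rsad2 -1.03 in muscle against liver, Ifi27l2a 0.84 and Usp18 -1.0 in restricted against fasted liver, and Igtp -0.044 in muscle. Oasl2 in restricted adipose tissue against liver was -0.055 with the deposited values. In FGF21-Tg liver Irf9 was 0.21 with the chip as a block or within shared chips, 0.11 with median scaling, 0.0033 with the deposited values and -0.12 to 0.14 without single arrays. Psmb8 there was 0.43 and 0.42 with the block and within shared chips and -0.43 to 0.033 without single arrays, and Stat2 was -0.24 to 0.048 without single arrays. Psmb8 in restricted liver was 0.017 with the block, 0.019 within shared chips, 0.017 without chips 2 and 3, and -0.29 to 0.027 without single arrays. In fasted liver it was -0.0046 with median scaling, -0.11 with wild-type controls with or without chips 2 and 3, and -0.14 to 0.35 without single arrays. Usp18 in restricted against fasted liver was -0.17 with the chip as a block, within shared chips or without chips 2 and 3, -0.11 with the replicate block, and -0.11 to 0.090 without single arrays.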
